A study of Mus musculus with 6 samples.

Results

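The 10 genes described here were grouped as links from the osteocyte surface to the actin of its dendrites. They were followed in mouse cortical bone treated with parathyroid hormone (PTH). They were selected by symbol from the 45281 probes of an Illumina mouse bead array and are 10 of its 31508 gene symbols, read by 22 probes. The membrane proteins are *Gp38* (the older name of *Pdpn*, podoplanin or E11) and *Cd44*. *Vil2* (now *Ezr*, ezrin), *Msn* (moesin) and *Rdx* (radixin) are the ERM linkers, *Capg*, *Cfl1* (cofilin) and *Dstn* (destrin) cut or cap actin filaments, and *Fscn1* (fascin) and *Lcp1* (L-plastin) bundle them. Femurs and tibias of C57BL6 mice aged 3 months were flushed and digested with collagenase and trypsin to remove marrow and surface cells. They were cultured overnight with serum and then kept for 24 hours. Control bones (labelled Ctr, n = 3 arrays) were untreated, and PTH bones (labelled Pth, n = 3 arrays) received PTH 1-34 at 250 nM. RNA of each preparation was pooled from about 10 bones of 4 to 5 mice. No source states whether the control and PTH preparations came from separate mice or days, so p-values measure only the spread between these arrays. The digested bone is an osteocyte-enriched preparation and not a purified cell type, so the arrays do not show which cells held the RNA of these genes. A change in RNA per cell and a change in the number of cells of a type cannot be told apart in whole bone.

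Podoplanin is a mucin-like membrane glycoprotein that appears early as an osteoblast becomes an osteocyte and is needed for dendrite extension. Its short cytoplasmic tail binds ezrin and moesin, and through them the actin cortex. CD44, a receptor for hyaluronan and osteopontin, binds ERM proteins in the same manner and can associate with podoplanin. Within the dendrite, actin is held in parallel bundles by fascin and plastins and is turned over by cofilin and destrin.

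Values are signals that were background corrected, quantile normalized and put on the log2 scale. A probe was tested with limma when it was above background (detection p under 0.05 against the negative controls) on at least 3 of the 6 arrays. The share of probes above background ran from 34.2% to 38.4% over the arrays, and 16214 probes were tested. The osteocyte markers *Dmp1*, *Mepe* and *Phex* were above background on all 6 arrays and *Sost* on 4, while *Fgf23* was above background on none. RNA of marrow cells was also read. Of 9 neutrophil genes 8 could be tested, with a summed linear normalized signal of 61167 to 63571 on control arrays. For 10 tested osteocyte and osteoblast genes the sum was 32559 to 34142.

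None of the 17 tested probes of the 10 genes passed an adjusted p under 0.05 with limma, where 1.61% of all probes tested did (0.617% higher and 0.993% lower with PTH). The methods' t-test, named there for comparisons of a pair of groups in general and not for the arrays, gave 3 probes at an unadjusted p under 0.05 and 0 after Benjamini-Hochberg adjustment. At an unadjusted p under 0.05 there were 4 such probes, 1 higher with PTH (*Gp38*) and 3 lower (2 of *Cd44*, 1 of *Lcp1*), and an unadjusted p under 0.05 was reached by 14.6% of all probes tested. The groups did not overlap for 5 of the 17 probes, 2 higher and 3 lower with PTH, against 20.8% of all probes tested (10.3% higher and 10.5% lower). The median log2 fold change of the 17 probes was -0.06, against 0.00 over all probes tested, and 3 of the 17 were above 0 while 14 were below. Every gene had at least 1 tested probe, and 12 of the 17 probes were above background on all 6 arrays. By the brightest tested probe of each gene, the control and PTH arrays did not overlap for 4 of 10 genes, 2 higher with PTH (*Gp38*, *Dstn*) and 2 lower (*Cd44*, *Lcp1*). Among all genes tested 21.9% had groups without overlap (11.1% higher and 10.8% lower). The plots of array values and of changes show where these genes lay.

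**Figure D1:**
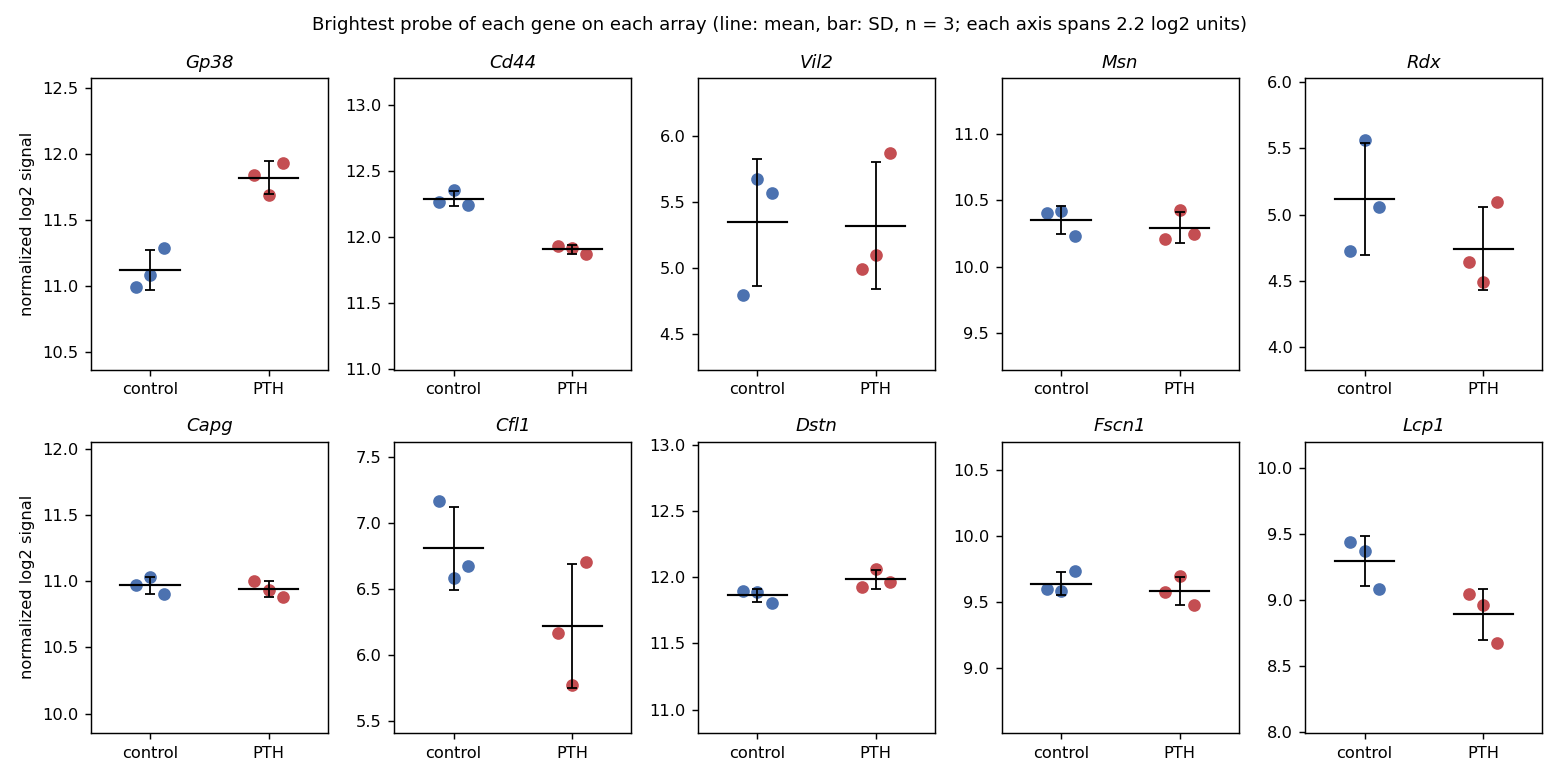
Normalized log2 signal of the brightest tested probe of each of the 10 genes on the 3 control arrays (blue) and the 3 PTH arrays (red), with the mean (line) and SD (bar) of each group. The vertical axes start at different values but all span the same log2 range, so the step in *Gp38*, from a mean of 11.12 to 11.82, can be set against the spread of *Vil2*, *Rdx* and *Cfl1*.

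**Figure D2:**
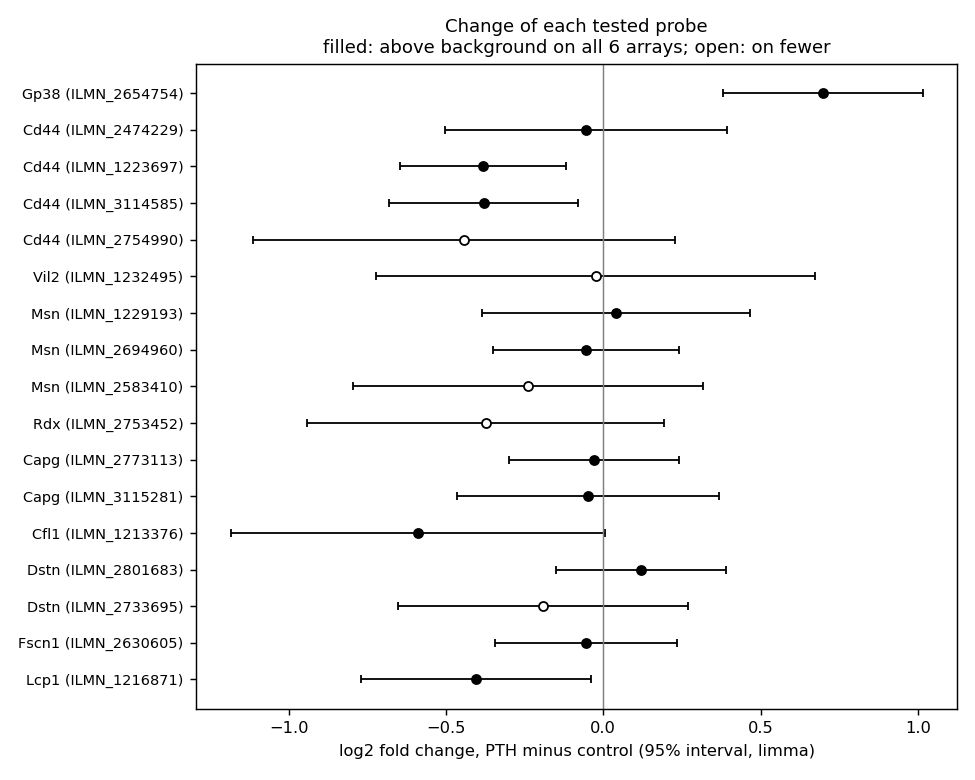
Log2 fold change (PTH minus control) of each of the 17 tested probes, with its 95% interval from limma. Filled points were above background on all 6 arrays and open points on fewer. The intervals of *Gp38*, of 2 *Cd44* probes and of *Lcp1* do not cross 0 before adjustment for the number of probes tested.

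*Gp38* had the highest log2 fold change of the 17 probes, with a mean signal 1.62-fold higher with PTH. Its single probe gave a deposited signal of 1729, 2246 and 2557 for control and of 3099, 3471 and 5457.5 for PTH. The array Pth-3 was brighter as a whole, with a mean signal over all probes of 429 against 298 to 349 on the other arrays. After normalization the *Gp38* signals were log2 values of 10.99, 11.08 and 11.29 against 11.84, 11.69 and 11.93. The lowest PTH array lay 0.40 above the highest control array on the log2 scale. The log2 fold change was 0.70 (SE 0.14) and the fold change had a 95% interval of 1.30 to 2.02. *Gp38* did not pass over all probes tested (limma adjusted p = 0.056, unadjusted p = 0.00101). It passed when the background was not corrected before quantile normalization (limma adjusted p = 0.000303), with normexp and an offset of 50 (0.00679), and when only probes with a detection p under 0.01 on all 6 arrays were tested (0.018). It did not pass with median scaling (limma adjusted p = 0.188), cyclic loess (0.0620), no detection filter (0.0836) or a replicate block (0.0962). In the fits with 1 array left out, its log2 fold change lay between 0.64 and 0.78 and its adjusted p between 0.0872 and 0.197. All 3 PTH arrays lay above all 3 control arrays, while the adjusted p fell on either side of the threshold depending on the setting.

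The upstream sequence of the gene is shown because podoplanin is the member with the largest difference. It covers the 250 bases before the RefSeq start of *Pdpn*, at chr4:143299565-143299814 on the minus strand of GRCm38.p6, written in the direction of transcription. The E-box CACGTG, a palindrome 144 to 139 bases before the start, is in capitals.
Pdpn: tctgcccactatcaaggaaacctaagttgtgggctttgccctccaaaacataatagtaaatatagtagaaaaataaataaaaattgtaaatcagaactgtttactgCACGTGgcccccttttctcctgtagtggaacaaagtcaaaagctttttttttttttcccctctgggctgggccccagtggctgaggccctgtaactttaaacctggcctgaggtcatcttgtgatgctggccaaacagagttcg
Windows ran from 250 bases before to 50 bases after a start, and the 10 genes have 12 of them. CACGTG was found in 2 of these 12 windows (*Pdpn* and *Msn*) and in 7.15% of all 32851 windows. The cAMP response element TGACGTCA was absent from the *Pdpn* window, whose only copy of its shorter part TGACG lay 29 to 33 bases after the start. TGACG was present in 20.8% of all windows. Both strands were searched, and the copies of TGACG inside TGACGTCA count for both.

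Podoplanin marks lymphatic endothelium as well as early osteocytes. The lymphatic genes *Xlkd1* (now *Lyve1*) and *Flt4* were above background on no array and *Prox1* on at most 1. *Nrp2*, the fourth gene of that list, was above background on all 6 arrays and was at -0.60 on the log2 scale (limma adjusted p = 0.163), with all PTH arrays below the control arrays. Other marker lists moved with the hormone in the same samples. Of the osteoclast list, 5 of 8 genes could be tested. At a limma adjusted p under 0.05, 3 rose (*Acp5*, *Oscar* and *Mmp9*), against 0.685% of all genes tested. All 5 were above 0, with a median log2 fold change of 0.84. *Calcr* and *Atp6v0d2*, which also define that cell, were above background on no array. The summed linear normalized signal of the osteoclast list was 11881 to 13358 on control and 16117 to 20631 on PTH arrays. Of the osteocyte and osteoblast list, 10 of 11 genes could be tested. At the same threshold 4 fell, against 1.04% of all genes tested. All 10 were below 0, with a median of -0.95 and a summed signal of 32559 to 34142 on control and 17995 to 19516 on PTH arrays. The part of these cells in the higher *Gp38* signal was not tested.

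*Cd44* was lower with PTH on its 2 brightest probes, by nearly the same amount. The brightest, ILMN_1223697, read 12.27, 12.35 and 12.24 for control and 11.93, 11.91 and 11.87 for PTH. All 3 PTH arrays lay below all 3 control arrays, and the SD within a group was 0.06 for control and 0.03 for PTH. Before normalization the groups overlapped, with deposited signals of 3971, 5166 and 4791 for control and 3341, 4053 and 5202 for PTH. The log2 fold change was -0.38 (SE 0.11, limma adjusted p = 0.176), or 0.767 of the control signal with a 95% interval of 0.639 to 0.922. The next, ILMN_3114585, read 10.32, 10.50 and 10.17 against 9.93, 9.97 and 9.95, again without overlap, and its log2 fold change was also -0.38 (SE 0.13, limma adjusted p = 0.228). Its deposited signals overlapped as well, at 1117, 1514 and 1232 against 883, 1125 and 1475. Another probe above background on all 6 arrays, ILMN_2474229, did not show the difference. It read 7.10, 7.04 and 6.86 against 6.56, 6.98 and 7.29, with a log2 fold change of -0.05 (95% interval -0.50 to 0.39). ILMN_2754990 was above background on 2 control and 2 PTH arrays and had a log2 fold change of -0.44 (95% interval -1.11 to 0.23). The remaining 5 of the 9 *Cd44* probes were not tested, 4 of them above background on no array and 1 on a single control array. *Cd44* is spliced into many forms and the table does not say which exons a probe reads. The brightest probe passed only when the background was not corrected before quantile normalization (limma adjusted p = 0.0171), and under median scaling its log2 fold change was -0.21 (limma adjusted p = 0.983).

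The 2 membrane partners thus had differences of opposite sign on the same arrays. The log2 signal of *Gp38* minus that of *Cd44*, a quantity that a scaling of the whole array cannot move, was -1.28, -1.27 and -0.96 for control and -0.10, -0.23 and 0.06 for PTH. Its mean was higher by 1.08 with PTH, and by between 1.00 and 1.19 over the alternatives tried, including each array left out. This pair was chosen after the values were seen, so the difference is a description and carries no test. The plot of both genes by setting shows the same separation throughout.

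**Figure D3:**
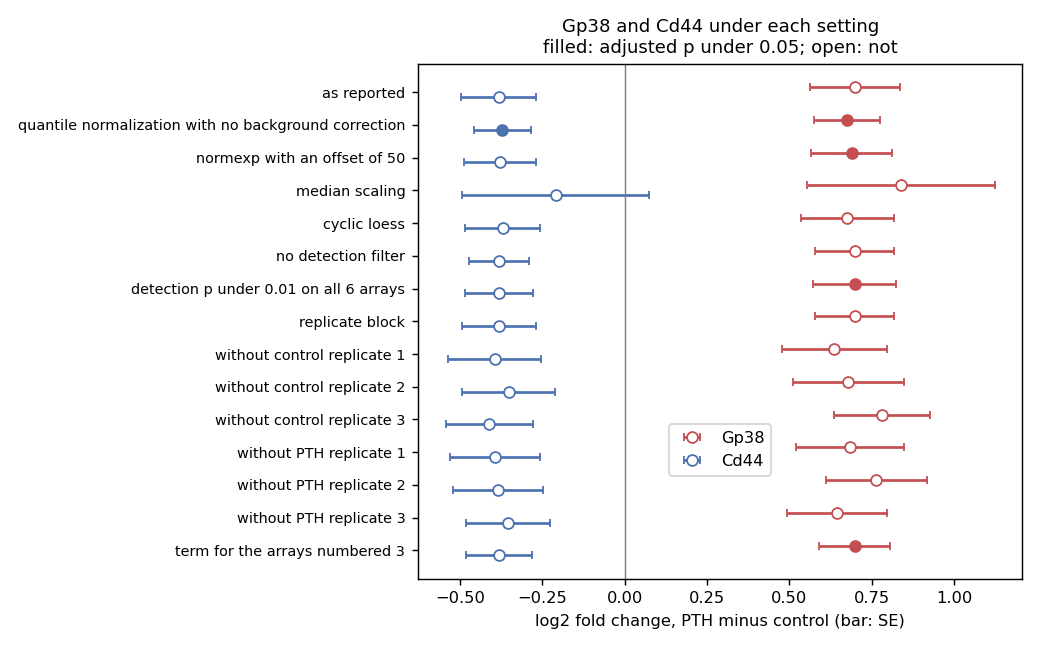
Log2 fold change (PTH minus control) of the brightest probes of *Gp38* (red) and *Cd44* (blue) as reported and under each alternative, with the SE as a bar. Filled points passed an adjusted p under 0.05 and open points did not. *Gp38* stays between 0.64 and 0.84, and *Cd44* between -0.41 and -0.21.

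The ERM linkers, which join both membrane proteins to actin, showed no difference that passed. *Msn* was the best measured of the 3, with its brightest probe ILMN_2694960 at 10.40, 10.42 and 10.23 on control arrays and 10.21, 10.43 and 10.25 on PTH arrays. The groups overlapped, the log2 fold change was -0.06 (SE 0.13, limma adjusted p = 0.891), and the 95% interval of the fold change was 0.784 to 1.18. Its probe ILMN_1229193, also above background on all 6 arrays, had a log2 fold change of 0.04 with an interval of -0.38 to 0.47. The dim probe ILMN_2583410, above background on 5 arrays, had one of -0.24 with an interval of -0.80 to 0.32.

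*Vil2* and *Rdx* had only 1 probe each, and both were close to the background. *Vil2* was above background on 2 control and 2 PTH arrays, with values of 4.80, 5.67 and 5.57 against 5.00, 5.10 and 5.87. Its log2 fold change was -0.02 (SE 0.30, limma adjusted p = 0.982), and the 95% interval of the fold change, 0.606 to 1.60, spans values well below and well above 1. *Rdx* was above background on 2 control arrays and 1 PTH array, with values of 4.72, 5.57 and 5.06 against 4.64, 4.49 and 5.10. The groups overlapped, and the log2 fold change was -0.37 (SE 0.25, limma adjusted p = 0.554) with a fold change interval of 0.521 to 1.14. Without Ctr-1 the log2 fold change of *Rdx* was -0.59, and without Ctr-2 it was -0.15. For ezrin and radixin a difference of moderate size was therefore not detectable with these probes.

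Among the genes that cut or cap filaments, no difference passed in limma. The brightest probes of the actin-depolymerizing pair had estimates of opposite sign, and the interval of each included no change. *Cfl1*, the cofilin of non-muscle cells, had the lowest log2 fold change of the 17 probes. It read 7.16, 6.59 and 6.67 for control and 6.17, 5.78 and 6.71 for PTH. The array Pth-3 lay within the control range while Pth-1 and Pth-2 lay below it. The log2 fold change was -0.59 (SE 0.26, limma adjusted p = 0.348), with a fold change interval of 0.440 to 1.01. Without Pth-3 the log2 fold change was -0.82 (limma adjusted p = 0.172), and without Pth-2 it was -0.37 (limma adjusted p = 0.586). Its size depended on the background correction, at -0.28 without it and -0.42 with an offset of 50. Without that correction the brightest probes of *Cd44* (-0.37) and *Lcp1* (-0.34) were lower than that of *Cfl1*.

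*Dstn*, which also depolymerizes actin, was slightly higher on its brightest probe, ILMN_2801683, at 11.90, 11.89 and 11.81 on control and 11.93, 12.06 and 11.96 on PTH arrays. The groups did not overlap, by a gap of 0.03 on the log2 scale. Before normalization they did, with deposited signals of 3142, 3871 and 3639 for control and 3326, 4501 and 5564 for PTH. The log2 fold change was 0.12 (SE 0.12, limma adjusted p = 0.706), with a fold change interval of 0.901 to 1.31. The dim probe ILMN_2733695, above background on 5 arrays, had a value of opposite sign, -0.19, with an interval of -0.65 to 0.27. *Capg*, which caps the growing end of filaments, read 10.97, 11.03 and 10.90 against 11.00, 10.94 and 10.88 on its brightest probe. The groups overlapped, the log2 fold change was -0.03 (SE 0.12, limma adjusted p = 0.942) and the fold change interval was 0.813 to 1.18. Its second probe, ILMN_3115281, gave -0.05.

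Of the bundling proteins, *Lcp1* was lower on every PTH array and *Fscn1* was not. *Fscn1* read 9.60, 9.58 and 9.74 on control and 9.58, 9.70 and 9.48 on PTH arrays, with overlapping groups. Its log2 fold change was -0.05 (SE 0.12, limma adjusted p = 0.889) and the fold change interval was 0.789 to 1.18. *Lcp1*, the plastin of leukocytes, read 9.44, 9.37 and 9.08 on control and 9.04, 8.96 and 8.67 on PTH arrays. All 3 PTH arrays lay below the control arrays, by a gap of 0.04 on the log2 scale. Before normalization the groups overlapped, with deposited signals of 638, 751 and 623 for control and 516, 609 and 667 for PTH. The log2 fold change of *Lcp1* was -0.40 (SE 0.16, limma adjusted p = 0.287), with a fold change interval of 0.587 to 0.972.

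*Lcp1* and *Cd44* are also expressed by blood cells, whose markers were read on the same arrays. None of the 9 leukocyte genes passed in limma and 7 were below 0, with a median log2 fold change of -0.18 and a summed linear normalized signal of 9322 to 9846 on control and 8215 to 9955 on PTH arrays. Of the neutrophil list, 8 of 9 genes were tested. At a limma adjusted p under 0.05, 4 fell (*Ngp*, *Ltf*, *Mpo* and *Lcn2*), against 1.04% of all genes tested. The list had a median of -0.65 and a summed signal of 61167 to 63571 on control and 42197 to 47530 on PTH arrays. *Ela2*, neutrophil elastase, was above background on no array. None of the 10 macrophage genes passed and 8 were below 0, with a median of -0.23 and a summed signal of 8510 to 8770 on control and 7004 to 7220 on PTH arrays. The part of these cells in the lower *Lcp1* and *Cd44* signals was not tested.

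The genes around these 10 were read from 4 lists of 74 genes, of which 72 were on the array and 53 were tested. With limma 2 rose and 1 fell, and the median log2 fold change was -0.02. Over all genes tested by their brightest probe, 1.73% were called (0.685% higher and 1.04% lower). The gene that rose most was *Has1*, a synthase of hyaluronan, the ligand of CD44. It read 5.59, 5.59 and 5.45 on control and 7.23, 7.16 and 7.26 on PTH arrays. Every PTH array lay far above every control array. The log2 fold change was 1.67 (SE 0.12, limma adjusted p = 0.000747) and the fold change interval was 2.64 to 3.85. Its size depended on the background correction, at 0.77 without it and 1.18 with an offset of 50. The second *Has1* probe was above background on no array.

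**Figure D4:**
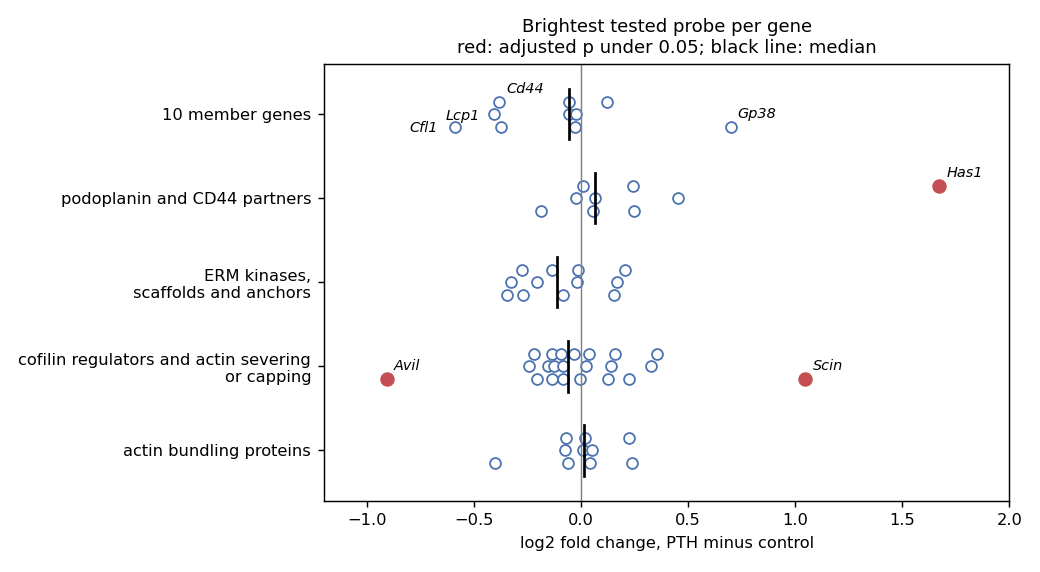
Log2 fold change (PTH minus control) of the brightest tested probe of each of the 10 genes and of each gene of the 4 surrounding lists, with the median of each list as a black line. *Has1* at 1.67, *Scin* at 1.05 and *Avil* at -0.91 (red) passed an adjusted p under 0.05, and *Gp38* at 0.70 did not.

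*Has1* and *Fscn1* are shown together because they alone, of the 10 genes and the 3 called genes around them, hold the full cAMP response element TGACGTCA in their window. The PTH receptor signals through cAMP, and CREB binds this element. The stretches have 26 bases on each side of the element, which is in capitals. They lie at chr17:17855238-17855297 on the minus strand for *Has1* and at chr5:142960284-142960343 on the plus strand for *Fscn1*, in GRCm38.p6 from RefSeq.
Has1: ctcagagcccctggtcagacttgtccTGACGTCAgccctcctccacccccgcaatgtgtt
Fscn1: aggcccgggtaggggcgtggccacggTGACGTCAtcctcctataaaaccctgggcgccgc
The element lies 83 to 76 bases before the start of *Has1* and 45 to 38 bases before that of *Fscn1*, and 1.79% of all windows hold it. *Has1* rose and *Fscn1* had a log2 fold change of -0.05. The AP-1 motif TGANTCA was found for *Ezr* alone of the 10 genes, in 1 of their 12 windows, and in 7.81% of all windows. The GC box GGGCGG was found for 8 of the 10 genes, in 8 of the 12 windows, and in 35.7% of all windows. A match describes the letters of the window and not binding.

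Of the other partners of podoplanin and CD44, 9 of 15 listed genes were tested, *Has1* included, and 7 were above 0. *Has2*, a second hyaluronan synthase, was at 0.45 on the log2 scale (SE 0.15, limma adjusted p = 0.206) with all PTH arrays above the control arrays. *Cd9*, a tetraspanin, gave -0.02, and *Clec2* (now *Clec1b*), the platelet receptor of podoplanin, gave -0.18 (-0.02 without Pth-3 and -0.32 without Pth-1). None of the 12 tested genes of ERM kinases, scaffolds and anchors passed in limma, and 9 were below 0 with a median of -0.11. The highest were *Slk*, a kinase of ERM proteins, at 0.20 and *Icam1* at 0.17, and the lowest were *Podxl* at -0.35 and *Slc9a3r1*, an ERM scaffold, at -0.33. Some of these values rested on single arrays. *Icam1* was at 0.04 without Pth-3, *Slk* at 0.11 without Ctr-3 and *Slc9a3r1* at -0.14 without Ctr-2.

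Of the cofilin regulators and severing or capping proteins 22 were tested, and the 2 that passed belong to the gelsolin family. *Scin* (scinderin) read 8.48, 8.59 and 8.15 on control and 9.45, 9.56 and 9.35 on PTH arrays, without overlap, and rose by 1.05 on the log2 scale (SE 0.15, limma adjusted p = 0.0205). *Avil* (advillin) read 6.91, 7.11 and 6.70 against 6.20, 5.86 and 5.93, without overlap, and fell by 0.91 (SE 0.16, limma adjusted p = 0.0365). The PTH arrays were thus all higher for the one and all lower for the other. Both calls were lost whichever array was left out, with limma adjusted p of 0.0523 to 0.0838 for *Scin* and 0.0639 to 0.137 for *Avil*. In those fits the log2 fold change was 0.92 to 1.14 for *Scin* and -1.02 to -0.80 for *Avil*. Calls over all probes also dropped there, from 261 to between 68 and 106. *Tmsb4x*, which sequesters actin monomers, gave 0.36 (limma adjusted p = 0.220) and *Limk2*, a cofilin kinase, gave -0.24 on its brightest probe and 0.27 on a dimmer one (ILMN_2728634, above background on 4 arrays). Without Pth-1 the brightest *Limk2* probe was at -0.12. None of the 10 tested bundling genes passed in limma. *Fmnl2* gave 0.24 (0.14 without Pth-2 and 0.40 without Pth-3), *Actn1* 0.23 (0.12 without Ctr-1) and *Evl* -0.07. *Actn4* gave -0.40 on its brightest probe, and -0.02 and -0.14 on 2 others that were above background on all 6 arrays. The second *Fmnl2* probe, above background on 3 arrays, gave 0.06.

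The genes most like *Gp38* over the 6 arrays, by Pearson's r of log2 values among 11978 genes, were *2210410E06Rik*, *Dusp1*, *Abhd1*, *6720425G15Rik* and *Ivns1abp*, with r of 0.993 to 0.997. For *Cd44* they were *Ddit4l*, *Grn*, *3830422K02Rik*, *Ctsw* and *Ceecam1*, and for *Vil2* *4632415L05Rik*, *Hnrpa1*, *Dnase1l1*, *Mapk3* and *Sca10*. With 6 arrays in 2 groups, 118 genes had an r over 0.95 with *Gp38*, 163 with *Cd44* and 22 with *Vil2*, and all share the same arrays.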

How the data were processed

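Total RNA of 3 control and 3 PTH preparations was hybridized to Illumina mouse bead arrays. The authors deposited, for each probe and array, a signal intensity that is not normalized and a detection p-value against negative controls. GenomeStudio is named in the submitters' processing notes, and the slide of each array is not given in the sources used here. From these files, limma 3.58.1 in R 4.3.3 was used for normexp background correction by detection p (offset 16), quantile normalization and log2 transformation (neqc). Probes with detection p under 0.05 on at least 3 of 6 arrays (16214 of 45281) were fitted (lmFit, eBayes), and p-values were adjusted over all of them by Benjamini-Hochberg. The number of arrays limits the precision. The script was tested on simulated data.

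The members and lists were chosen with earlier results of these data known. All member probes were named. From 4 lists (podoplanin and CD44 partners; ERM kinases, scaffolds and anchors; cofilin regulators and severing or capping proteins; bundling proteins) every called gene and the 2 highest and 2 lowest genes were named, and for *Gp38*, *Cd44* and *Vil2* the 5 genes of highest Pearson r. The brightest tested probe represented a gene. Marker lists covered osteocytes and osteoblasts, leukocytes, neutrophils, macrophages, osteoclasts, lymphatic and blood endothelium and skeletal muscle. Alternatives were other background corrections, normalizations and filters, a replicate block, each array left out and an equal-variance t-test, a test that the study's methods name for comparisons of a pair of groups in general. For the arrays they name a GenomeStudio differential expression score, which was not rerun here. Promoter windows came from RefSeq (GRCm38.p6), where all 10 genes matched.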

Additional observations from a re-analysis of the deposited data

How the results depend on the processing

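Of the 17 tested probes of the 10 genes, limma called 3 (1 higher, 2 lower) without background correction, 1 with an offset of 50, 1 with the stricter detection filter (p under 0.01 on every array) and 1 when Ctr-3 and Pth-3 had a term of their own, an alternative chosen after seeing the data. The stricter filter left 12 of these probes. Over all probes tested, those 4 fits called 4.47%, 3.10%, 3.74% and 1.46%, against 1.61% as reported. At an unadjusted p under 0.05, limma gave 4, where 14.6% of all probes tested passed. The equal-variance t-test gave 3, and its share over all probes was not counted. Leaving out each array gave 0 in every fit. *Gp38* passed in the same 4 fits, at 0.67, 0.69, 0.70 and 0.70 (limma adjusted p = 0.000303, 0.00679, 0.018 and 0.0484), and was between 0.64 and 0.78 with each array left out.

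Of the 53 genes tested in the 4 lists, 6 were called without background correction and 1 with the replicate block. With each array left out 1 was called, against 3 as reported. Over all probes tested, those fits called 4.47%, 0.395% and 0.419% to 0.654%. These are shares of probes, and shares of genes were not counted for those fits. *Has1* was the gene called in all of these fits. With the replicate block no member probe passed and the limma adjusted p of *Gp38* was 0.0962. Same-numbered arrays deviated from their group means with r = 0.07, 0.06 and 0.27, the last for Ctr-3 with Pth-3. Control and PTH arrays of unlike number gave r from -0.14 to 0.07. The labels do not say what a number marks, so the numbers were not taken to pair the samples. *Scin* (0.0517) and *Avil* (0.094) lost their calls in the block fit, and *Avil* also under median scaling (0.222) and with no detection filter (0.0618).

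Median scaling moved the median of all probes to 0.11 and the calls over all probes from 100 higher and 161 lower to 77 and 61. Against that shift, *Vil2* (0.0599), *Msn* (0.0930), *Capg* (0.122), *Fscn1* (0.121), *Evl* (0.0379) and *Cd9* (0.146) changed sign. *Vil2* also did so with cyclic loess (0.0166), *Msn* on ILMN_1229193 (0.0413) and *Dstn* on ILMN_2733695 (-0.19). With each array left out the log2 fold change ranged from -0.31 to 0.14 for *Vil2*, -0.0634 to 0.00482 for *Capg*, -0.33 to 0.25 for *Evl* and -0.117 to 0.0695 for *Cd9*. The causes were not tested. Of 131 values of the other 9 genes under the alternatives, 117 kept their direction and side of the threshold, 13 reversed and 1 (*Cd44* without background correction) passed. Over all probes, calls ranged from 64 with the replicate block to 725 without background correction. A slide block was not run, since no slide is named. Signals of *Vil2* and *Rdx* near background limit what can be seen there.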

Other observations

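Blood endothelial genes were all tested, and none of the 6 passed in limma, with a median log2 fold change of -0.33 and a summed linear normalized signal of 1310 to 1511 on control and 1312 to 1367 on PTH arrays. Of the 7 skeletal muscle genes only *Mylpf* was tested, at -0.08, and the other genes were above background on no array.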
